A study of Mus musculus with 8 samples.

Results

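Ccl2, Ccl7, Ccl8, Ccl11 and Ccl12 are 5 CC chemokine genes that lie side by side on mouse chromosome 11, and they were taken by name from the 41709 genes measured by RNA-seq in mouse muscle. All 5 were in the table, and 4 of them passed the filter on low values, which kept 11530 genes whose level, in TPM (transcript abundance scaled to transcript length and library), reached 1 TPM in 4 or more muscles out of 8. Ccl12 did not pass. The 5 genes were selected on measured values of the present contrast, Ccl2 and Ccl7 having been chosen by a lower level with Uba1 siRNAs and Ccl8 by a higher one. Their siRNA contrast is therefore a description. No p is given for it, and the calls of the fit across all genes are listed once, as no evidence for these genes.

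CC chemokines are small secreted proteins that draw leukocytes out of the blood by binding G protein-coupled receptors, and their name refers to a pair of adjacent cysteines near the start of the mature protein. CCL2, CCL7 and CCL12 are monocyte chemoattractants that act mainly through CCR2, CCL11 is the eosinophil attractant eotaxin that acts through CCR3, and mouse CCL8 is known as a ligand of CCR8. In injured or inflamed muscle such chemokines come from fibers, resident stromal cells, endothelium and macrophages, and TNF, IL-1 and NF-kB are among their best known inducers. Their mRNAs are typically short-lived, and RNA-binding proteins such as tristetraprolin (Zfp36) and the RNase Regnase-1 (Zc3h12a) act on inflammatory mRNAs.

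The muscles were tibialis anterior (TA) muscles of male C57BL/6J mice at 3 months of age. Both legs were pretreated with hyaluronidase and electroporated with 1500 pmol of siRNAs in 30 μl, and TA muscles were collected 7 days later. In each of 4 mice, 1 TA muscle received non-targeting siRNAs (NT siRNAs, labelled siNT, n = 4) and the contralateral muscle received a pool of 4 siRNA species against Uba1, the E1 enzyme that activates ubiquitin (Uba1 siRNAs, labelled siUBA1, n = 4). The libraries are of whole muscle, so that fewer cells of a type and less RNA per cell cannot be told apart. All NT libraries are labelled RTA and all Uba1 libraries LTA, so that the leg and the siRNA cannot be told apart either, and no muscle without electroporation was among the samples. The treatment tags of Uba1 replicates 2 to 4 carry other numbers after "UBA" than the titles and descriptions, which name UBA1. Uba1 itself, which checks the labels, was at 59.0 to 63.6 TPM with NT siRNAs and at 6.77 to 23.1 TPM with Uba1 siRNAs.

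The 5 genes are on the plus strand of chromosome 11 and span 81.2 kb (chr11:81926397-82007625, GRCm39), with 0 other annotated genes between them. Their order is Ccl2 (chr11:81926397-81928279), Ccl7 (chr11:81936532-81938351), Ccl11 (chr11:81948618-81953781), Ccl12 (chr11:81992645-81994466) and Ccl8 (chr11:82006007-82007625). The gaps between neighbours are 8252, 10266, 38863 and 11540 bases. Each annotated transcript has 3 exons. The feature that gives the family its name is shown first, because it is what the 5 genes share: the adjacent cysteine codons (in capitals) with 24 coding bases on each side, 5′ to 3′. In every gene the window begins in exon 1 and ends in exon 2, so that its genomic span holds the intron between them. The spans are chr11:81926563-81927361 for Ccl2, chr11:81936682-81937393 for Ccl7, chr11:81948862-81952551 for Ccl11, chr11:81992798-81993489 for Ccl12 and chr11:82006132-82006911 for Ccl8.
Ccl2: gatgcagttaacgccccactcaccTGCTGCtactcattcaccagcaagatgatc
Ccl7: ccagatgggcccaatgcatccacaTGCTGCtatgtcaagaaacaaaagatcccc
Ccl11: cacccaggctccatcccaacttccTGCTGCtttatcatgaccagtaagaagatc
Ccl12: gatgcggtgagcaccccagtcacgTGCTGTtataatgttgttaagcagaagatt
Ccl8: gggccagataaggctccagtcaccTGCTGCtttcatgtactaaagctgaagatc

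Counted from the start codon, the cysteine codons are codons 34 and 35 in Ccl2, 33 and 34 in Ccl7 and Ccl12, and 32 and 33 in Ccl11 and Ccl8, and each coding sequence holds 1 such pair. Over the aligned coding bases (291 to 315 a pair), identity between members ran from 60.9% (Ccl11 and Ccl8) to 70.8% (Ccl12 and Ccl8). The coding sequence of Ccl2 has 447 bases with the stop codon, so that part of it is left out of these values. The longest run of bases shared by any 2 of the transcripts was 23 bases, between Ccl2 and Ccl7, against reads of 100 bases. How the authors counted reads that match several genes was not given in the sources used here.

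Ccl2 was at 28.0, 40.7, 38.1 and 34.6 TPM in the muscles with NT siRNAs of replicates 1 to 4, and at 3.45, 1.80, 3.70 and 6.07 TPM in the contralateral muscles with Uba1 siRNAs. The groups did not overlap, and the highest value with Uba1 siRNAs was well under the lowest with NT siRNAs. The mean was 35.4 ± 5.50 TPM (SD, n = 4) with NT siRNAs against 3.76 ± 1.76 TPM (SD, n = 4) after Uba1 knockdown, a 9.42-fold lower mean. On the log2(TPM + 1) scale used for every log2FC here, the log2FC was -3.00 with a standard error (SE) of 0.30. For the 5 chemokines the SE is that of an unpaired comparison of the groups. For all other genes it is the moderated SE of the limma fit described below. Ccl2 was lower in all 4 mice, by 8.11-, 22.7-, 10.3- and 5.70-fold in TPM. The deposited TPM step in whole multiples for each gene, so that the smallest set of whole reads behind them could be read off, and the true counts are at least these: 503 to 718 reads of Ccl2 per muscle with NT siRNAs and 32 to 105 with Uba1 siRNAs.

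Ccl7, the neighbour of Ccl2 and a ligand of the same receptor, was at 17.1, 32.6, 37.4 and 23.7 TPM with NT siRNAs and at 4.99, 2.24, 3.28 and 6.90 TPM with Uba1 siRNAs. Again every muscle with Uba1 siRNAs was under every muscle with NT siRNAs. The mean was 27.7 ± 9.04 TPM and 4.35 ± 2.04 TPM (SD, n = 4 each), a 6.37-fold lower mean, with a log2FC of -2.45 (SE 0.37). Within mice Ccl7 was 3.43-, 14.6-, 11.4- and 3.44-fold lower. Replicate 2 thus had the greatest difference for both genes. Its Uba1 muscle also had the lowest Uba1 level (6.77 TPM), the highest mitochondrial share of TPM of the 8 muscles (50.3%) and the lowest summed macrophage and myofiber markers, and the part of these in the difference was not tested. Without that muscle the log2FC was -2.77 for Ccl2 and -2.23 for Ccl7. At least 216 to 448 reads of Ccl7 per muscle stood behind the NT values and at least 28 to 84 behind the Uba1 values.

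Ccl11, the eotaxin gene and the next along the chromosome, was at 29.8, 30.3, 40.9 and 28.6 TPM with NT siRNAs and at 26.2, 19.8, 34.8 and 23.9 TPM with Uba1 siRNAs. The groups overlapped, and both muscles of replicate 3 were the highest of their group. The mean was 32.4 ± 5.74 TPM and 26.2 ± 6.33 TPM (SD, n = 4 each), and the log2FC of -0.31 (SE 0.20) was about as large as the spread between muscles. It was -0.20 without the NT muscle of replicate 3 and -0.19 without the Uba1 muscle of replicate 2. Ccl11 was lower in all 4 mice, by 1.14- to 1.53-fold, which is far less than the differences in Ccl2 and Ccl7. Its log2 differences within mice ran from -0.59 to -0.18, with an SD of 0.19. At least 335 reads of Ccl11 were recovered in every muscle, so that its values are among the most precise of the 5 genes.

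Ccl8 was at 0.744, 1.90, 7.72 and 0.944 TPM with NT siRNAs and at 5.57, 3.50, 7.44 and 3.61 TPM with Uba1 siRNAs. In 3 of 4 mice the muscle with Uba1 siRNAs was higher, by 7.48-, 1.85- and 3.82-fold in replicates 1, 2 and 4. In replicate 3 both legs were high and the ratio was 0.964 (Uba1 over NT). The mean was 2.82 ± 3.30 TPM and 5.03 ± 1.87 TPM (SD, n = 4 each), and the log2FC was 0.94 (SE 0.57). The groups overlapped through the NT muscle of replicate 3, and without it the log2FC was 1.44. The whole reads recovered were few, at least 6, 15, 59 and 7 with NT siRNAs and at least 42, 28, 55 and 28 with Uba1 siRNAs.

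Ccl12, the neighbour of Ccl8, was at 0.236, 0.601, 1.74 and 0.513 TPM with NT siRNAs and at 0.505, 0.595, 4.50 and 0.490 TPM with Uba1 siRNAs. Apart from replicate 3, every muscle was under 1 TPM, and at least 2 to 5 reads stood behind each of those values. The mean was 0.773 ± 0.664 TPM and 1.52 ± 1.99 TPM (SD, n = 4 each), and 2 of 4 mice had the higher value with Uba1 siRNAs. The log2FC of 0.32 (SE 0.52) rested on the Uba1 muscle of replicate 3, without which it was -0.15. Ccl12 was under the filter and not tested, and no difference in it is claimed from so few reads.

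**Figure D1:**
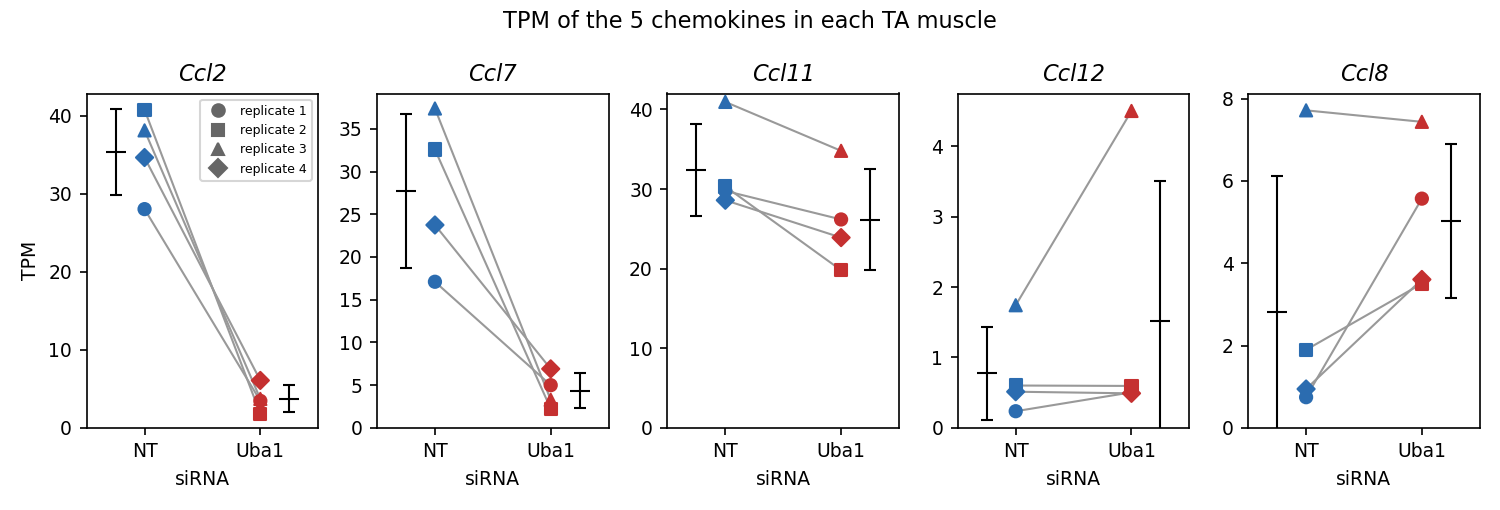
Each panel plots 1 chemokine gene, with TPM on the vertical axis and the siRNA on the horizontal axis. Points are muscles, grey lines join the muscles of 1 mouse and black bars are the mean ± SD of 4 muscles (cut at 0). Ccl2 and Ccl7 fall on every line, Ccl11 declines slightly on every line, and Ccl8 and Ccl12 are highest in the muscles of replicate 3.

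Since the genes were chosen on the same contrast, the calls are listed without weight. By limma over all 11530 genes, 1 of the 4 tested chemokines, Ccl2, passed an adjusted p of 0.05 in the direction lower with Uba1 siRNAs, where 0.0260% of all tested genes did so, and 0 passed as higher, where 0% of all genes did. Ccl2 did not pass in a linear model without moderation, where 0 of the 4 chemokines passed and 0 of all genes were called lower. In the Kruskal-Wallis test 0 of the 4 chemokines and 0 of all genes passed, since its smallest possible p of 0.0209 cannot pass the adjustment. With the mouse as a block, Ccl2 and Ccl7 passed as lower (0.304% of all genes) and 0 as higher (0.191% of all genes). At an unadjusted p of 0.05, Ccl2 and Ccl7 were lower (1.98% of all genes) and 0 were higher (16.0% of all genes). Groups that did not overlap were found for Ccl2 and Ccl7 as lower, beside 1.01% of all genes, and for 0 chemokines as higher, beside 10.6% of all genes. The median log2FC of all tested genes was 0.11, and 0.00 after median-ratio scaling, under which the values were -3.11 for Ccl2, -2.55 for Ccl7, -0.43 for Ccl11, 0.26 for Ccl12 and 0.85 for Ccl8.

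Because TPM are per length of transcript, the levels of the 5 genes could be set against each other. With NT siRNAs the mean levels ran Ccl2, Ccl11, Ccl7, Ccl8, Ccl12 from high to low. The leading 3 did not differ beyond their spread, and their order changed from muscle to muscle: Ccl11 was the highest in replicates 1 and 3 and Ccl2 in replicates 2 and 4. Ccl8 and Ccl12 followed in that order in all 4 muscles, although their group ranges overlapped. With Uba1 siRNAs Ccl11 was the highest of the 5 in every muscle, at 19.8 to 34.8 TPM. Ccl8, Ccl7 and Ccl2 came next, with mean levels of 5.03, 4.35 and 3.76 TPM that lay within their spread. Among all tested genes, mean Ccl2 stood above 85.7% with NT siRNAs and above 29.0% with Uba1 siRNAs, and Ccl7 above 82.0% and 33.2%. Ccl11 kept a high rank, above 84.5% and 80.1%, whereas Ccl8 stood above 24.2% and 37.7%.

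The summed TPM of the 5 genes was 99.1 ± 21.8 (SD, n = 4) with NT siRNAs against 40.8 ± 10.5 (SD, n = 4) after Uba1 knockdown. It ran from 75.9 to 126 TPM and from 27.9 to 53.7 TPM, so that the groups lay apart. The make-up of this sum differed as well. Ccl2 made up 36.2% ± 4.05 of it with NT siRNAs and 9.16% ± 3.87 with Uba1 siRNAs, and Ccl7 made up 27.4% ± 3.65 and 10.8% ± 4.78. Ccl11 accounted for 33.2% ± 4.44 and 64.6% ± 5.13, and Ccl8 for 2.49% ± 2.45 and 12.2% ± 2.35. The shares of a sum are not independent, and the larger share of Ccl11 stands beside a slightly lower level in TPM. The ratio of Ccl2 to Ccl7 was 1.02 to 1.64 with NT siRNAs and 0.692 to 1.13 with Uba1 siRNAs, so that the ratio of these neighbours overlapped between the groups while the level of each did not.

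**Figure D2:**
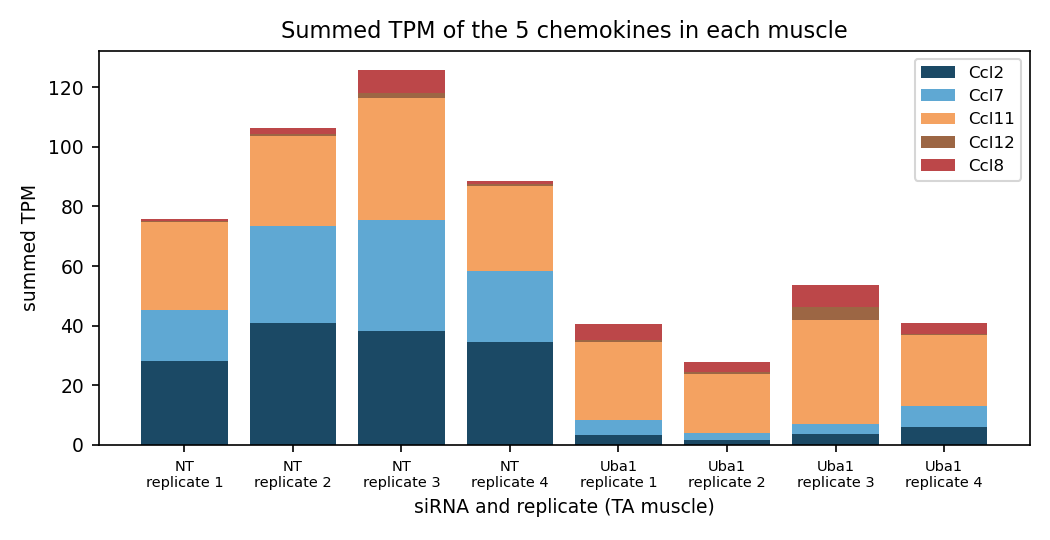
Bars show the summed TPM of the 5 chemokine genes (vertical axis) in each of the 8 muscles (horizontal axis), divided by gene. The sum is 75.9 to 126 TPM with NT siRNAs and 27.9 to 53.7 TPM with Uba1 siRNAs, and Ccl11 makes up most of the bar in each muscle with Uba1 siRNAs.

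Along the chromosome, the pair at one end (Ccl2 and Ccl7) held the lower values with Uba1 siRNAs, and Ccl11 lay next to them with a small difference. The pair at the other end (Ccl12 and Ccl8) had means of 0.773 and 2.82 TPM with NT siRNAs. With Uba1 siRNAs their means were 1.52 and 5.03 TPM, and the groups of both genes overlapped. Of the nearest 3 annotated protein-coding genes on each side, only Tmem98, a membrane protein gene, passed the filter, at a mean of 1.85 TPM with NT siRNAs and 1.94 TPM with Uba1 siRNAs. Spaca3 was listed at 0 in every muscle. Asic2, the acid-sensing channel gene next to Ccl2, did not exceed 0.0606 TPM, and Ccl1, the chemokine gene that follows Ccl8, did not exceed 0.0286 TPM. Tmem132e stayed at or under 0.0427 TPM and Cct6b at or under 0.217 TPM.

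**Figure D3:**
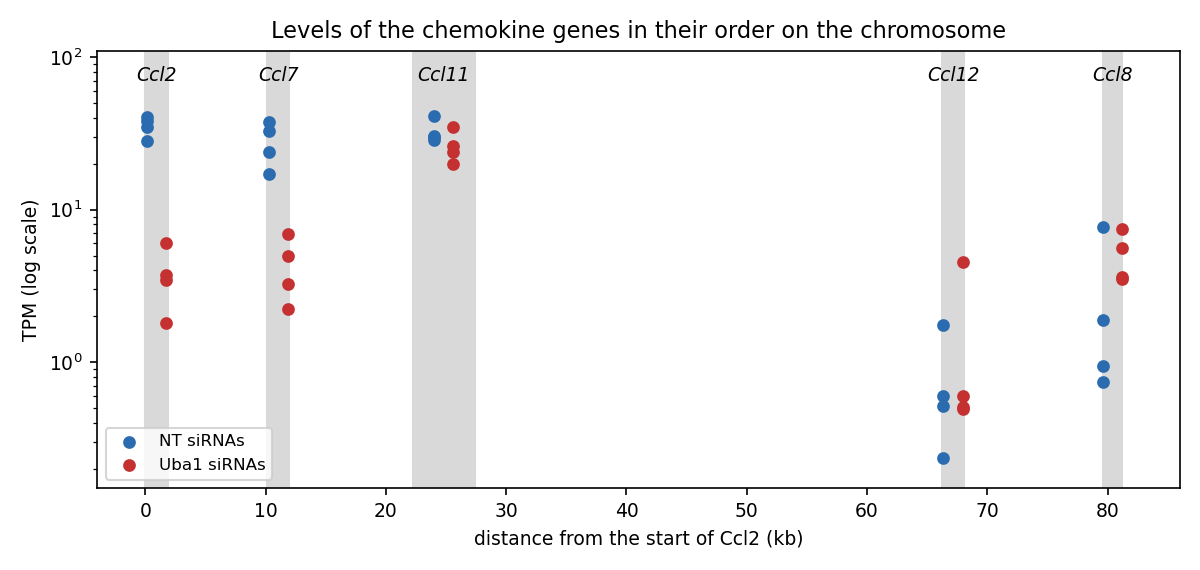
The horizontal axis is the distance from the start of Ccl2 in kb, grey bands are the 5 genes to scale, and points are the TPM of single muscles (vertical axis, log scale) with NT siRNAs (blue) or Uba1 siRNAs (red). The points separate by siRNA at Ccl2 and Ccl7 and overlap at Ccl11, Ccl12 and Ccl8.

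The transcripts differ in a feature of short-lived mRNAs. The 3′ UTRs of Ccl2 and Ccl7 hold 1 and 2 copies of the pentamer ATTTA, those of Ccl11 and Ccl12 hold 5 each, and that of Ccl8 holds 0. Of 20721 transcripts of coding genes, 67.5% hold at least as many copies as Ccl2, 49.7% as many as Ccl7 and 24% as many as Ccl11 and Ccl12. Their 3′ UTRs are 275, 435, 644, 407 and 165 bases long for Ccl2, Ccl7, Ccl11, Ccl12 and Ccl8. Per kb of 3′ UTR, 14.7% of these transcripts were at least as dense in ATTTA as Ccl2, 8.77% as Ccl7, 2.41% as Ccl11 and 0.743% as Ccl12.

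The RefSeq promoter table (GRCm38.p6) held 2 of the 5 genes, Ccl12 and Ccl8, the neighbours at the far end of the cluster with the lowest levels under NT siRNAs. The promoters of both are shown to compare them. The 100 bases before the start site are shown 5′ to 3′ on the plus strand for both, with the TATA box in capitals (chr11:82101745-82101844 for Ccl12 and chr11:82115085-82115184 for Ccl8, GRCm38.p6).
Ccl12: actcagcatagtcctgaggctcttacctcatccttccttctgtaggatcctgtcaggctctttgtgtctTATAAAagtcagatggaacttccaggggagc
Ccl8: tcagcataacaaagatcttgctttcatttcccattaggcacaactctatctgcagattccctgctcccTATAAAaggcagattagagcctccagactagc

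The sequence TATAAA, searched on both strands, was found at position -31 of Ccl12 and -32 of Ccl8, and 13.6% of the 32851 promoters in the table held it within the same 300 bases. The patterns searched for the NF-kB motif, the AP-1 motif TGANTCA, an interferon-type element and CCAAT had no match in these 300 bases of either gene. These patterns were present in 8.46%, 7.81%, 3.44% and 37.4% of all promoters. Sites that depart from these patterns were not searched. The 2 promoters were 61.3% identical over their aligned bases.

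For each of the 4 tested chemokines, the 5 tested genes with the most similar profile were found by the root mean square difference of centred log2(TPM + 1) values over the 8 muscles. For Ccl2 the nearest was Ccl7 (0.36), followed by Uba1, Atf3, Tnfaip6 and Sele. For Ccl7 the nearest was Tnfaip6 (0.31), followed by Ccl2, Uba1, Atf3 and Cxcl1. Atf3, a stress-induced transcription factor, was at 76.9, 158, 99.8 and 129 TPM with NT siRNAs and 14.5, 23.4, 17.7 and 45.8 TPM with Uba1 siRNAs. Tnfaip6, a hyaluronan-binding protein induced by TNF, was at 10.2, 17.1, 25.3 and 14.5 TPM with NT siRNAs and had a mean of 3.59 TPM with Uba1 siRNAs, where its lowest muscle was at 2.55 TPM. Since the profiles hold the siRNA contrast on which the chemokines were chosen, genes found in this way differ between the groups by construction. Sele (E-selectin, the endothelial leukocyte adhesion molecule) had a mean of 6.91 TPM with NT siRNAs and 1.09 TPM with Uba1 siRNAs, and Cxcl1, a neutrophil chemoattractant, 56.7 and 13.1 TPM.

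Ccl11 and Ccl8 had other neighbours in profile. The nearest to Ccl11 was Tagln2, an actin-binding protein (0.07), with Baiap2, Il2rg, Mapk8ip1 and Rab7b behind it, and the profile of Ccl11 itself varied little (0.29). The nearest to Ccl8 was Retnla (0.14), a gene known from alternatively activated macrophages, followed by Ear2, Lyz1, Ccl6 and Ccr2. Retnla was at 44.5 TPM in the NT muscle of replicate 3 and at 8.26 to 14.4 TPM in the other 3, and at 38.7, 19.1, 47.1 and 26.3 TPM with Uba1 siRNAs, and it shared with Ccl8 the high values in both muscles of replicate 3. Ear2, an eosinophil-associated ribonuclease gene, was at 0.882, 0.898, 5.58 and 0.767 TPM and at 3.77, 1.60, 4.61 and 3.02 TPM.

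Of the 8 receptors and scavengers that bind these or related chemokines, Ccr2 and Ackr1 passed the filter and 6 did not. Ccr2, the receptor of CCL2, CCL7 and CCL12, was at 1.20, 1.34, 3.18 and 1.10 TPM with NT siRNAs and at 3.61, 1.72, 4.16 and 1.67 TPM with Uba1 siRNAs. It was higher with Uba1 siRNAs in all 4 mice, but the groups overlapped and it did not pass the test (log2FC 0.48, SE 0.28, limma adjusted p = 0.369). Ackr1, an atypical receptor of venular endothelium and red cells that binds many inflammatory chemokines, had a log2FC of -0.29 (SE 0.20, limma adjusted p = 0.446). Neither receptor was thus shown to differ in level.

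The receptors under the filter that are given here were low in every muscle. Ccr1 had a mean of 0.861 TPM with NT siRNAs and 0.923 TPM with Uba1 siRNAs, and the scavenger Ackr2 0.430 and 0.386 TPM. Ccr3, the receptor of eotaxin, had a mean of 0.0406 and 0.0313 TPM, and Ccr8, the receptor of mouse CCL8, 0.0831 and 0.0140 TPM, so that the receptors of CCL11 and CCL8 were near 0. Ackr4, a scavenger known mainly for other CC chemokines, was at 0.0960 to 0.200 TPM with NT siRNAs and at 0.202 to 0.709 TPM with Uba1 siRNAs. The TPM of replicate 1 were nearly equal, with at least 17 reads with NT siRNAs and 16 with Uba1 siRNAs, and Ackr4 was not among the genes tested.

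Other CC chemokine genes were set beside the 5. Of 16 such genes 10 were tested, and 0 passed limma at an adjusted p of 0.05 or at an unadjusted p of 0.05 in either direction. Their median log2FC was 0.20, beside 0.11 for all genes tested. Ccl25, a thymic and intestinal chemokine (log2FC 0.18, SE 0.10, limma adjusted p = 0.364), and Ccl27a, a skin chemokine that binds CCR10 (log2FC 0.17, SE 0.12, limma adjusted p = 0.454), had the smallest unadjusted p. Ccl6, a macrophage chemokine and the most abundant of those near Ccl8 in profile after Retnla, ran from 5.99 to 20.8 TPM with NT siRNAs and was at 15.3, 7.48, 23.6 and 8.91 TPM with Uba1 siRNAs, with replicate 3 again the highest in both groups. Of the 15 other chemokine receptors 3 were tested and 0 passed at either threshold. The 2 with the smallest unadjusted p were Ccrl2 (log2FC 0.08, SE 0.11) and Cxcr4 (log2FC 0.02, SE 0.27), and the median of the 3 was 0.02, or -0.09 after median-ratio scaling.

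Among 21 cytokines and cytokine receptors known to induce these chemokines, 14 were tested, 0 passed the adjusted threshold, and at an unadjusted p of 0.05, 2 were lower and 0 higher, where 1.98% and 16.0% of all genes were. Il6 was at 2.06, 5.72, 5.20 and 3.94 TPM with NT siRNAs and at 0.837, 0.764, 0.0854 and 1.36 TPM with Uba1 siRNAs. Its groups did not overlap, as for 1.01% of all genes in the lower direction, but the log2FC of -1.56 (SE 0.29) missed the threshold (limma adjusted p = 0.0909). Tnf had a log2FC of -0.65 (SE 0.25, limma adjusted p = 0.238). The median of the 14 genes was 0.12 and that of all genes 0.11.

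The 22 subunits, kinases and inhibitors of NF-kB were all tested, and 0 passed the adjusted threshold. At an unadjusted p of 0.05, 8 were lower and 2 were higher, where 1.98% and 16.0% of all genes were. The lowest p were those of Bcl3, a nuclear IkB protein, and Tnfaip3, the deubiquitinase A20 that restrains NF-kB signaling. Bcl3 had a mean of 3.88 TPM with NT siRNAs and 1.70 TPM with Uba1 siRNAs (log2FC -0.87, SE 0.13, limma adjusted p = 0.0527), and with the mouse as a block it passed (adjusted p = 0.0405). Tnfaip3 had means of 10.3 and 3.86 TPM (log2FC -1.23, SE 0.19, limma adjusted p = 0.0644). The other 6 were Nfkbie, Rela, Nfkbia, Rel, Nfkbiz and Nfkbid, named here after their values were seen, and several of these are themselves known NF-kB target genes. The 2 that were higher, also named after their values were seen, were the kinase genes Chuk (log2FC 0.25, SE 0.06, limma adjusted p = 0.149) and Map3k7 (log2FC 0.18, SE 0.05, limma adjusted p = 0.174). The median of the 22 was -0.09, and -0.20 with 15 lower and 7 higher after median-ratio scaling, beside medians of 0.11 and 0.00 for all genes.

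Of 10 regulators of the decay of such mRNAs, all were tested and 0 passed the adjusted threshold. At an unadjusted p of 0.05, Zc3h12a and Arid5a were lower and Zfp36l2 and Rc3h1 were higher, where 1.98% and 16.0% of all genes were. Zc3h12a, the RNase Regnase-1, had means of 9.17 and 4.76 TPM (log2FC -0.84, SE 0.12, limma adjusted p = 0.0527), and Arid5a, an RNA-binding protein that opposes it, 3.93 and 1.94 TPM (log2FC -0.76, SE 0.16, limma adjusted p = 0.129). With the mouse as a block Zc3h12a (adjusted p = 0.0359), Arid5a (adjusted p = 0.0133) and, as higher, Zfp36l2 (adjusted p = 0.0445) passed, where 0.304% of all genes passed as lower and 0.191% as higher. Zfp36l2 and Rc3h1 are named after their values were seen.

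**Figure D4:**
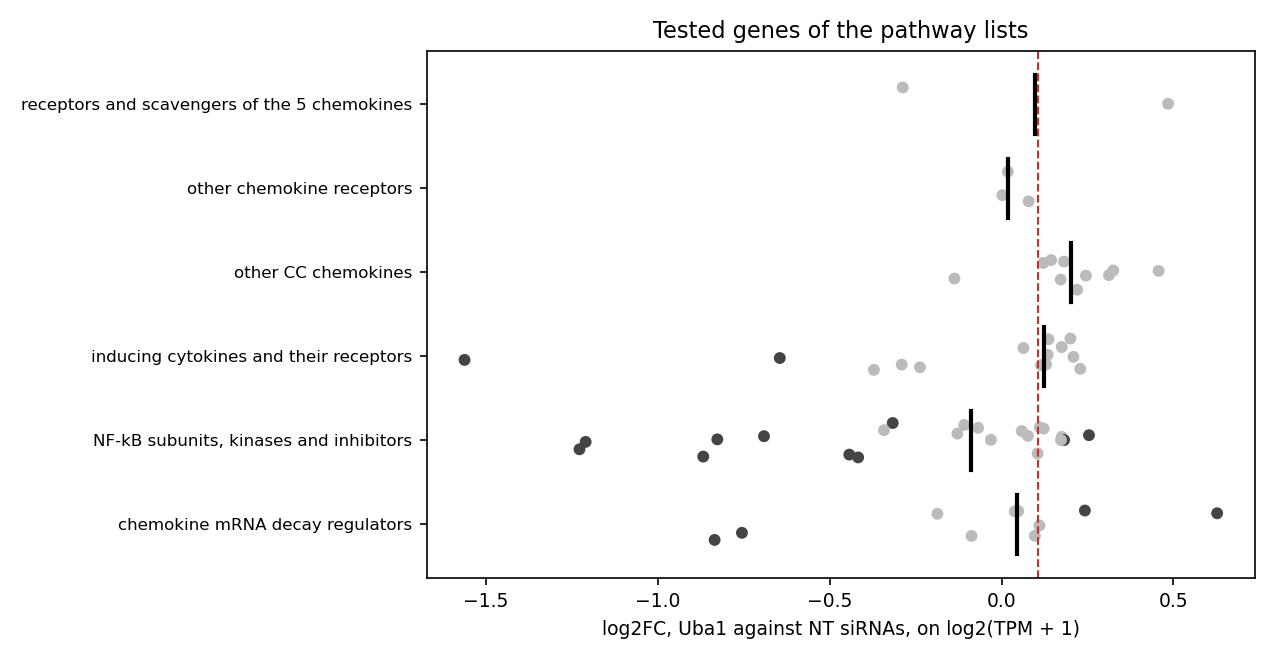
Each point is a tested gene of a pathway list (vertical axis), placed by its log2FC with Uba1 against NT siRNAs on log2(TPM + 1) (horizontal axis). Dark points have an unadjusted limma p under 0.05, black ticks are list medians and the dashed red line is the median of all genes, 0.11. Dark points appear in the cytokine, NF-kB and decay lists and in none of the 3 chemokine and receptor lists.

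The cell content of the muscles was read from marker lists. The summed TPM of 20 macrophage and monocyte markers was 250, 290, 522 and 167 with NT siRNAs and 401, 154, 543 and 187 with Uba1 siRNAs. It was higher with Uba1 siRNAs in 3 of 4 mice, none of the markers was at 0 in all muscles, and both muscles of replicate 3 were the highest of their group, as for Ccl8, Ccl12 and Ccr2. Of the 20 markers 16 had the higher mean TPM with Uba1 siRNAs, but 81.8% of all tested genes had a log2FC above 0, and so did 11 of the 16 tested markers. After median-ratio scaling, which left 50.7% of all genes above 0, 7 of these 16 were higher and 9 lower. In replicate 2 the sum was lower with Uba1 siRNAs while Ccl8 was 1.85-fold higher. Per 1000 TPM of these markers, Ccl8 stood at 2.98, 6.55, 14.8 and 5.66 TPM with NT siRNAs and at 13.9, 22.8, 13.7 and 19.3 TPM with Uba1 siRNAs. Relative to the markers Ccl8 was higher in the same 3 mice, and the ranges overlapped through replicate 3. On the same footing Ccl2 stood at 73.0 to 208 and 6.82 to 32.4 TPM and Ccl7 at 68.4 to 142 and 6.03 to 36.9 TPM. Ccl2, Ccl7 and Ccl8 were chosen on this contrast, so that these ratios are a description only. The part of macrophage content in them was not tested.

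**Figure D5:**
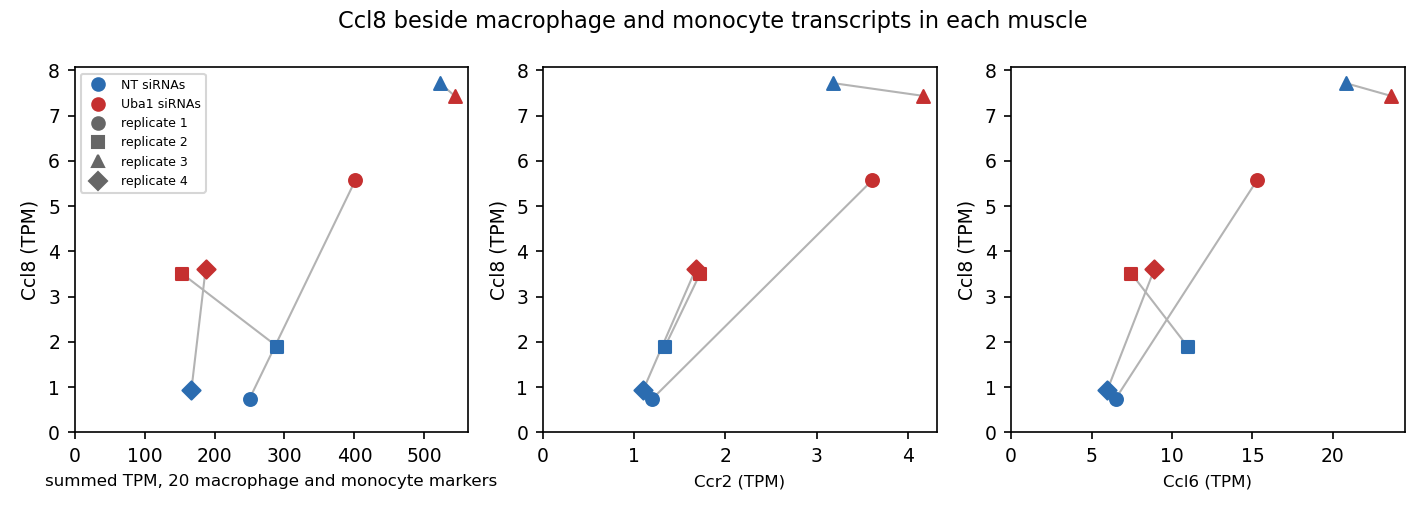
Ccl8 in TPM (vertical axis) is plotted against the summed TPM of 20 macrophage and monocyte markers, Ccr2 and Ccl6 (horizontal axes, TPM) in each muscle, with lines that join the muscles of 1 mouse. Both muscles of replicate 3 lie at the upper right of every panel, and in replicate 2 Ccl8 is higher with Uba1 siRNAs although the macrophage sum is lower, 290 and 154 TPM.

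The other marker lists were summed in the same way. The sum of 10 markers of fibro-adipogenic progenitors, stromal cells that are a known source of Ccl2 and Ccl11 in muscle, was 542 to 1062 TPM with NT siRNAs and 672 to 1317 TPM with Uba1 siRNAs, higher in all 4 mice and with 10 of 10 markers at the higher mean. Their median log2FC was 0.21, and 0.11 with 9 of 10 higher after median-ratio scaling, beside medians of 0.11 and 0.00 for all genes. Ccl2, Ccl7 and Ccl11 were lower in all 4 mice. The sum of 10 endothelial markers was 163 to 236 and 180 to 221 TPM, with 6 markers at the higher mean, while after median-ratio scaling 1 was higher and 9 were lower. Neutrophil markers summed to 16.8 to 54.5 and 28.7 to 65.8 TPM, higher in 3 of 4 mice, with 7 of 8 at the higher mean and Camp at 0 in all muscles. The 4 tested neutrophil markers had a median log2FC of 0.48, and 0.38 with 4 of 4 higher after median-ratio scaling. Eosinophil and mast cell markers, which include the cells that CCL11 attracts, summed to 6.31 to 8.97 and 5.83 to 9.96 TPM, with 4 of 9 at the higher mean and the eosinophil markers Siglecf, Epx and Prg2, named after their values were seen, near 0. T, B and NK cell markers summed to 1.75 to 3.97 and 1.44 to 4.04 TPM, with 3 of 10 at the higher mean. Markers of myofibers, the main cells of the labelled TA muscle, had the highest sums of the 7 lists, 137338 to 150922 and 107535 to 153570 TPM, with 3 of 10 at the higher mean. The part of cell content in the values of the 5 chemokines was not tested.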

How the data were processed

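Per the labels, total RNA of 8 electroporated TA muscles was sequenced with paired 100-base reads. The authors trimmed reads (Phred 20, at least 50 bases), mapped them with CLC Genomics Workbench 20.0.4 (GRCm39) and deposited TPM for each gene. The annotation they counted against was not given in the sources used here. TPM keep no library depth. The mitochondrial share of TPM was 39.9 to 50.3% per muscle.

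The members and gene lists were chosen with earlier results of these data known. Genes that reached 1 TPM in 4 or more muscles were tested on log2(TPM + 1) with limma 3.58.1 (lmFit, eBayes with trend, R 4.3.3, two-sided, Benjamini-Hochberg over 11530 genes, 4 against 4 muscles). The mouse was an alternative block, because equal replicate numbers mark the 2 legs of 1 mouse; the deviations of same-numbered muscles from their group means correlated at -0.000368, 0.201, 0.584 and 0.537 in replicates 1 to 4, so that those of replicate 1 did not move together. On simulated data of this comparison (11530 genes, 200 changed by a log2 change of 2), 99% of changed genes were recovered, with 7.48% false calls and 0 calls when none was changed.

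Named genes were the 5 members, the receptors of the 5 chemokines (1 of which is not reported here), the flanking genes, the 5 nearest profiles per member and, of each other list, those that passed or the 2 with the smallest p. Other genes, including markers at or near 0, were named after their values were seen. Whole reads per gene were taken from the TPM steps shared between muscles, up to an unknown common factor. Positions and transcripts are from the GENCODE annotation of GRCm39, promoters from RefSeq. Alternatives changed the pseudocount (0.1), the filter, the scaling, the block, the test and the muscles used.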

Additional observations from a re-analysis of the deposited data

Results flagged for a closer look

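In 4 groups of 4 muscles, 1 muscle lay far from the other 3 (Dixon's criterion, which chance meets in about 1 of 20 groups). The 14 groups searched would give 0.7 by chance. All 4 were muscles of replicate 3: Ccl11 at 40.9 TPM, Ccl8 at 7.72 TPM and Ccr2 at 3.18 TPM with NT siRNAs, and Ccl12 at 4.50 TPM with Uba1 siRNAs. The macrophage and monocyte marker sums of both muscles of replicate 3, 522 and 543 TPM, were also the highest of their groups, and the part of cell content in these values was not tested.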

How the results depend on the processing

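The log2FC of Ccl2, Ccl7, Ccl11 and Ccl8 kept their sign under the 15 alternatives run for each, between -3.31 and -2.77, -2.70 and -2.21, -0.45 and -0.19, and 0.67 and 1.44. Leaving out 1 muscle gave -3.21 to -2.77, -2.66 to -2.23, -0.45 to -0.19 and 0.67 to 1.44. The replicate block cannot change a log2FC here, since both legs of each mouse are in the fit. Ccl2, Ccl7 and Ccl8 were chosen by their sign, so that keeping it is no evidence. For Ccl12 the sign turned to -0.15 without the Uba1 muscle of replicate 3 (range over left-out muscles -0.15 to 0.55), and quantile normalization was not run for it because it was under the filter. Without both muscles of replicate 3, a choice made after seeing the data, Ccl7 was at -2.21, Ccl12 at 0.09 and Ccl8 at 1.27.

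The number of genes that passed limma over all genes was 3 (3 lower, 0 higher), and it was 11 with a filter at a mean of 5 TPM, 23 with median-ratio scaling, 28 with quantile normalization and 13 with TPM rescaled without mitochondrial genes. It was 57 with the replicate block (35 lower, 22 higher), 76 when the replicate block was joined with median-ratio scaling. It was 0 by the Kruskal-Wallis test, in which 2210 genes had an unadjusted p under 0.05 but the smallest possible p was 0.0209. Without the filter on low values 2 genes were lower and 1 higher, and a linear model without moderation called 0 lower and 2 higher. Leaving out 1 muscle gave 2 to 39 genes, 39 without the Uba1 muscle of replicate 4. Of the receptor, ligand and pathway genes, 0 passed in limma as reported, 1 with the filter at 5 TPM, 4 with median-ratio scaling, 4 with quantile normalization, 1 without mitochondrial genes, 4 with the replicate block and 7 with the block and median-ratio scaling. Leaving out 1 muscle gave 0 to 5, with 5 (Nfkbia, Nfkbiz, Bcl3, Tnfaip3 and Zc3h12a) without the Uba1 muscle of replicate 4 and 1 (Bcl3) without that of replicate 2. The causes of these shifts were not tested. Library depth is unknown, since TPM do not keep it, and of the 5 chemokines the fewest whole reads were recovered for Ccl12 and Ccl8. With 4 muscles a group, the p-values of the main fit measure the spread between the muscles of a group. Those with the mouse as a block measure the spread of the differences within mice.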
